A study of Mus musculus with 63 samples.

Results

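Pituitaries of female C57BL/6 mice under chronic unpredictable mild stress (CUMS) were compared with unstressed controls in the 6M-12W set. CUMS exposes rodents for weeks to a changing schedule of mild stressors. The set was chosen by its titles, the 4 libraries named 6M-12W-Pit-CUMS against the 4 named 6M-12W-Pit-Ctrl, which are 8 of the 63 libraries of the series. The titles and the series text give 6 months of age and 12 weeks of stress, without saying whether the age is that at the start, and name no genotype, transgene or drug for either group. The sources used here do not give the stressors or how the controls were handled. The other pituitary sets (2M-8W, 2M-12W and 6M-8W, 24 libraries) each have their own 4 controls. The labels do not say whether each library is 1 animal or a pool, so the p-values measure the spread between these libraries. Neither the hour of collection nor the stage of the estrous cycle is given in the sources used here.

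The anterior pituitary secretes hormones from specialised cells, among them the corticotropes, which make ACTH from the precursor encoded by Pomc and are driven by hypothalamic CRH during stress. Glucocorticoids released from the adrenal gland in response feed back on corticotropes through the glucocorticoid receptor. The gland is threaded by fenestrated capillaries on a basement membrane, holds resident macrophages, and has a circadian clock in which CLOCK or NPAS2 with BMAL1 (encoded by Arntl) activate genes through E-boxes, PER and CRY proteins repress them, and REV-ERB and ROR proteins repress and activate Arntl.

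All levels are CPM (read counts scaled to the library's TMM-adjusted total), and all folds are log2 folds of stressed over control with their standard error (SE) from edgeR's quasi-likelihood test. The test used all 32 pituitary libraries and adjusted p over 17001 genes. A gene was counted as risen or fallen where the adjusted p was under 0.05. Of the genes tested, 47 passed, which is 0.276%. Among them 17 rose (0.1% of genes tested) and 30 fell (0.176%), and the median log2 fold of all genes tested was -0.000409. At an unadjusted p under 0.05 there were 1829 genes (10.8%), of which 869 were higher (5.11%) and 960 lower (5.65%). In each of the 47 genes the 4 stressed libraries lay wholly outside the range of the 4 controls, as was so for 410 genes higher (2.41%) and 395 genes lower (2.32%) among all tested.

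Clock genes were the list with the most calls, and gave 7 of the 17 rises and 2 of the 30 falls. Basement membrane genes, a list put together after the values were seen, gave 4 falls, among them both chains of the most common type IV collagen.

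The libraries of the set stood apart from the other pituitary libraries in composition. Genes encoded in the mitochondrial genome took 4.19%, 5.86%, 10.02% and 6.19% of counts in controls 1 to 4 and 4.34%, 5.48%, 6.44% and 6.00% in stressed pituitaries 1 to 4, against 2.74% to 5.35% (median 3.12%) in the other 24 pituitaries. Control 3 was the highest of all 32 libraries, and the stressed range lay inside the control range. The mean difference of -1.002 percentage points had a two-sided exact permutation p of 0.6, where 4 against 4 cannot go below 0.0286, and without control 3 the difference was 0.151 points. Ribosomal protein genes took 0.831% to 1.17% of counts in the controls and 1.13% to 1.18% in the stressed pituitaries, and both ranges lay below the 1.23% to 1.62% of the other sets. Gh took 2.90% to 4.73% of counts here and 5.24% to 8.67% elsewhere. Total counts were 13514270 to 15955928 in the controls and 14322855 to 21990254 in the stressed pituitaries. The controls resembled one another less, with a mean correlation to their own group of 0.968 to 0.977 (log2 CPM across genes), than the stressed pituitaries did, with 0.982 to 0.984.

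**Figure D1:**
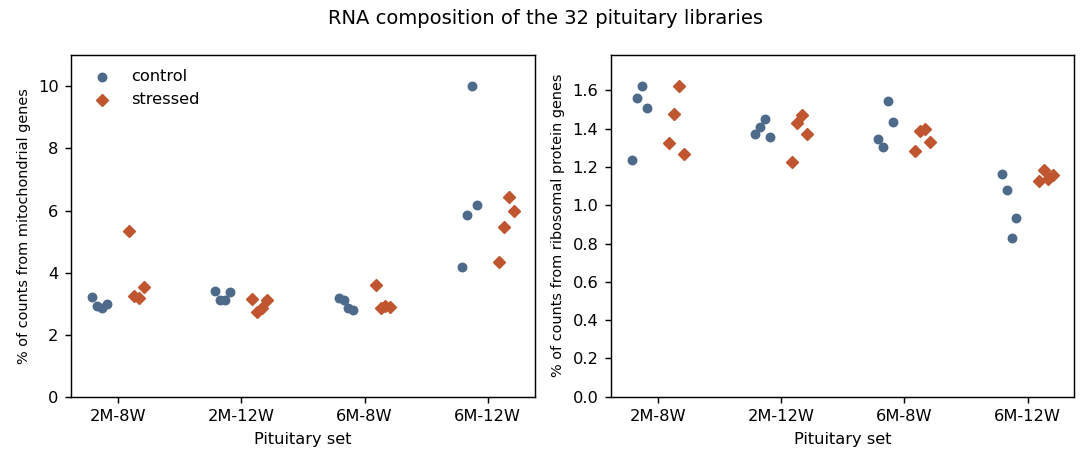
Share of counts from mitochondrially encoded genes (left, %) and from ribosomal protein genes (right, %) in each of the 32 pituitary libraries, by set and arm (circles, controls; diamonds, stressed; 4 of each in a set). In the 6M-12W set control 3 reaches 10.02% mitochondrial counts and has the lowest ribosomal protein share, 0.831%.

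Earlier results of these data had set controls 3 and 4 apart. By the measures above control 4 was less extreme than control 3. It had 6.19% mitochondrial counts, 0.933% ribosomal protein counts and the highest own-group correlation of the controls (0.977). Each result was also computed without both controls 3 and 4, and without control 3 alone. Without both, 40 genes passed (15 higher, 25 lower), and 16 of the 47 were among them: Arntl, Ciart, Per2, Tef, Npas2, Nr1d2, Col4a1, Col4a2, Mettl7a1, Cmtm7, Cmtm3, Scd3, Tmem229a, Ahdc1, Ntng2 and Prrt1. Without control 3 alone, 31 genes passed and 26 of them were among the 47. With each library's mitochondrial share as a covariate, 42 genes passed and 39 were among the 47. In each of 18 other fits 46 of the 47 kept their direction, and Sctr did in the 17 fits that tested it.

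Promoter sequences are shown first for those called clock genes that hold motifs through which the clock is known to act, which not all of them do. The collagen pair is shown later because the genes share one promoter. The sequences come from RefSeq (GRCm38.p6), which held a promoter (250 bases before to 50 after the start site) for 33 of the 47 genes. The E-box, CACGTG, is a palindrome and so reads alike on both strands. Ciart, which rose, had 3 E-boxes, starting at -116, -58 and -44 from its start site (chr3:95882249-95882368, minus strand, E-boxes in capitals).
Ciart: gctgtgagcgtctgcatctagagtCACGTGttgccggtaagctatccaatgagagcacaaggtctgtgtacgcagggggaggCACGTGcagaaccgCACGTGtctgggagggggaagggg
Tef, which also rose, had 1 E-box before each of its 2 start sites, at -127 and -138 (chr15:81802503-81802582 and chr15:81811244-81811323, plus strand).
Tef, first start site: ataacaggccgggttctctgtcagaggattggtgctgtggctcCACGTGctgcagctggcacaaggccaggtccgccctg
Tef, second start site: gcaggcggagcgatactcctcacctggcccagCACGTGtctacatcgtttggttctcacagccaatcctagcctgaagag
Per3 rose and had a pair of D-boxes, TTANGTAA, the motif of the DBP, TEF and HLF proteins, at -205 and -158 from the start site (chr4:151044796-151044895, minus strand, D-boxes in capitals).
Per3: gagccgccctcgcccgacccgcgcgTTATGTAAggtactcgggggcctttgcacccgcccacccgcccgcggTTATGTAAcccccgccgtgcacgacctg
Arntl, which fell, had the ROR element TAGGTCA, bound by ROR and REV-ERB proteins, 31 bases into one of its start sites (chr7:113207531-113207557, plus strand, element in capitals).
Arntl: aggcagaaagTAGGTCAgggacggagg

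Among the 8 clock genes that passed the test and have a promoter in the table, 3 (37.5%) held an E-box: Ciart, Tef and Bhlhe41. Of the 12 risen genes with a promoter 4 (33.3%) held one, these 3 and Rnf145, and of the 21 fallen genes 1 (4.76%) did. The share was 11.1% of the 11964 tested genes with a promoter and 8.09% of all 27025 genes in the table. Among the 25 called genes outside the clock list that have a promoter, 2 (8%) held one. The D-box was in 2.72% and the ROR element in 2.97% of all genes, counted on both strands; no motif counted here contains another. In tested genes with a promoter the shares were 1.87% and 2.21%. Among called genes the D-box was in Per3 alone. The ROR element was in Arntl and in 2 of the 25 outside the clock list (8%): Glul, which rose, and Leo1, which fell. The glucocorticoid response element was in 0.537% of all genes and in 1 of the 33 called genes with a promoter, Scd3. These matches describe the letters in the windows.

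The clock genes moved in 2 directions. Arntl and Npas2, which encode activating partners of the clock, fell, and Per2, Per3, Ciart, Nr1d2, Bhlhe41, Dbp and Tef, which are repressors or output genes, rose. In all, 7 of the 19 clock genes tested rose, 2 fell and 10 did not pass, with a median log2 fold of 0.35. Without controls 3 and 4, 4 rose (Per2, Ciart, Tef and Nr1d2) and both falls stayed.

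Arntl (chr7:113207465-113314122, GRCm38) was at 34.3, 32.8, 33.6 and 30.9 CPM in the controls and 16.5, 16.1, 17.7 and 15.2 CPM in the stressed pituitaries (log2 fold -1.01 ± 0.12 (SE), adjusted p = 2.70e-05). The libraries of each group were close together, and every stressed value was far below the lowest control. Npas2 (chr1:39193731-39363236), a paralog of Clock, was at 4.04, 4.01, 3.74 and 3.15 CPM in the controls and 0.887, 1.22, 0.345 and 1.47 CPM in the stressed pituitaries (log2 fold -1.93 ± 0.27 (SE), adjusted p = 2.14e-04). Its lowest control was above its highest stressed library, and stressed pituitary 3 was lowest of all.

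Per2 (chr1:91415982-91459324), which encodes a repressor of CLOCK and BMAL1, was at 31.0, 35.4, 39.7 and 35.5 CPM in the controls and 82.4, 87.5, 84.6 and 95.0 CPM in the stressed pituitaries (log2 fold 1.30 ± 0.17 (SE), adjusted p = 6.88e-05). Every stressed library was above every control. Ciart (chr3:95878503-95882251), encoding another repressor in the same complex, was at 2.25, 3.21, 1.91 and 2.52 CPM in the controls and 6.52, 9.74, 7.04 and 8.32 CPM in the stressed pituitaries (log2 fold 1.66 ± 0.26 (SE), adjusted p = 8.57e-04). Tef (chr15:81802421-81826861), a D-box binding output factor, was at 84.6, 104, 68.8 and 92.6 CPM in the controls and 227, 182, 168 and 194 CPM in the stressed pituitaries (log2 fold 1.14 ± 0.14 (SE), adjusted p = 2.70e-05). Both genes had groups that did not overlap, and Ciart had the largest rise of the 47 genes.

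The other risen clock genes had smaller or less even differences. Dbp, a D-box factor like Tef, was at 63.9, 83.9, 37.1 and 50.6 CPM in the controls and 126, 115, 109 and 123 CPM in the stressed pituitaries (log2 fold 1.004 ± 0.20 (SE), adjusted p = 0.0161), with control 3 lowest. Nr1d2, which encodes REV-ERB beta, was at 177, 222, 246 and 218 CPM in the controls and 288, 327, 348 and 346 CPM in the stressed pituitaries (log2 fold 0.60 ± 0.10 (SE), adjusted p = 0.00371). Per3 (log2 fold 0.79 ± 0.16) and Bhlhe41, encoding the repressor DEC2 (log2 fold 0.58 ± 0.12), had edgeR adjusted p-values of 0.0161 and 0.0185. Dbp shares 18% of its exon bases with Sphk2 and Bhlhe41 19% with Gm43909, each on the other strand, so reads could be shared. Dbp, Per3 and Bhlhe41 no longer passed when control 3, control 4, stressed 1 or stressed 4 was left out, with adjusted p up to 0.084, 0.084 and 0.102. Arntl, Npas2, Per2, Ciart, Tef and Nr1d2 passed whichever of the 8 libraries was left out. In edgeR on the set's own 8 libraries alone, Npas2 and Nr1d2 did not pass (adjusted p = 0.112 and 0.136), while Arntl, Per2, Ciart and Tef did.

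Clock genes that did not pass included paralogs of genes that did. Nr1d1, which encodes REV-ERB alpha, was at 209, 172, 222 and 183 CPM in the controls and 208, 158, 169.9 and 177 CPM in the stressed pituitaries (log2 fold -0.14 ± 0.13, adjusted p = 0.755), and the groups overlapped. Clock had a log2 fold of 0.066 ± 0.19, Per1 of 0.12 ± 0.28, Cry1 of 0.19 ± 0.20 and Nfil3 of -0.57 ± 0.26. Cry2 had groups that did not overlap but an adjusted p of 0.286 (log2 fold 0.36 ± 0.13).

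**Figure D2:**
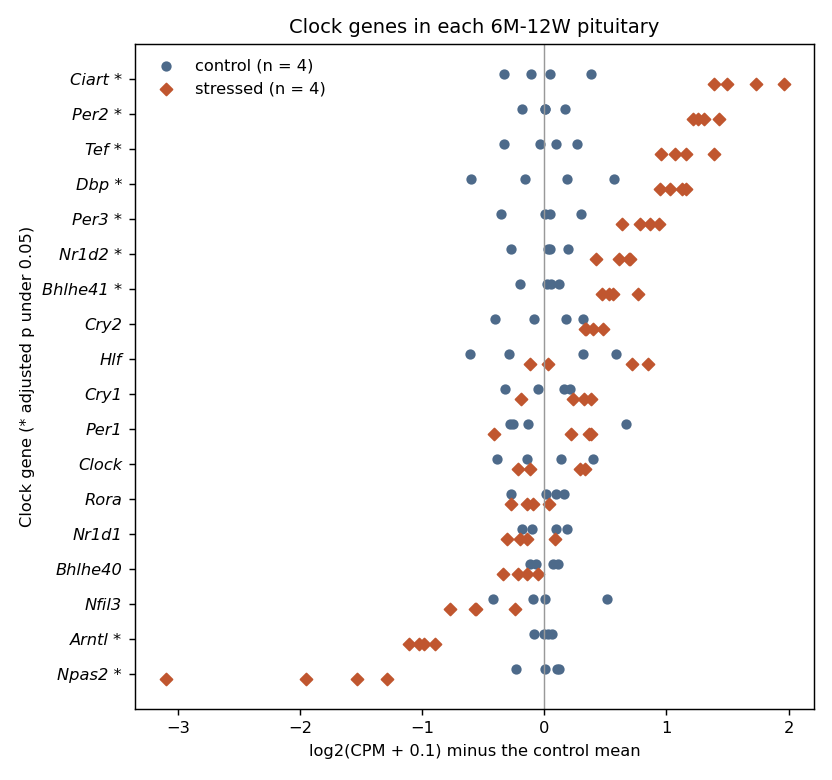
Clock genes (18 of the 19 tested) in each 6M-12W pituitary, as log2(CPM + 0.1) minus the mean of the 4 controls (circles, controls; diamonds, stressed; star, adjusted p under 0.05). Arntl and Npas2 lie left of all controls, Per2, Ciart, Tef, Dbp, Per3, Nr1d2 and Bhlhe41 lie right of them, and Nr1d1 overlaps its controls.

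The stress effect on Nr1d1 differed between this set and the others. The test of the difference from the mean effect of the other sets called 2 genes, 0.0118% of those tested, both lower: Nr1d1 and Tex11. Nr1d1 had a log2 fold of -0.14 here and of 1.19 in 2M-8W, 2.16 in 2M-12W and 0.85 in 6M-8W. Its difference from their mean was -1.54 ± 0.16 (SE, adjusted p = 1.46e-06), and it passed in every alternative and with any of the 32 libraries left out (-1.625 to -1.48). Tex11, a meiosis gene named after its values were seen, had 1.95 ± 0.14 CPM in the controls and 1.97 ± 0.36 CPM in the stressed pituitaries (SD, n = 4), and its difference was -1.65 ± 0.29 (adjusted p = 0.0272). DESeq2 called 28 genes for the same difference, and edgeR without controls 3 and 4 called 8, with 1 of the 2 genes among them.

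At the same 12 weeks of stress, the set was compared with the younger 2M-12W set. This test called 4 genes (0.0235%), of which 3 had a lower effect here (0.0176%) and 1 a higher one (0.00588%). Those lower here were Nr1d1 (difference -2.30 ± 0.19, adjusted p = 1.67e-08), Tex11 (-2.17 ± 0.37, adjusted p = 0.0188) and Dbp (-1.58 ± 0.29, adjusted p = 0.0356). Dbp rose in both sets, by a log2 fold of 1.004 here and 2.58 there. The Dbp difference missed the threshold in 15 of 32 fits that left out 1 library, with adjusted p up to 0.131. Without controls 3 and 4 the test called 9 genes, and with a replicate block 1, Nr1d1.

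At the same labelled age, the set was compared with 6M-8W, where 799 genes passed (4.70%), 391 higher (2.30%) and 408 lower (2.40%). The test of the difference called 61 genes (0.359%), 20 with a higher (0.118%) and 41 with a lower effect here (0.241%). Doc2b, a calcium sensor in vesicle fusion, had a log2 fold of 0.34 here and 2.52 in 6M-8W (difference -2.18 ± 0.30, adjusted p = 0.000533). Chrna6, a nicotinic acetylcholine receptor subunit, and Nwd2 had differences of -2.99 ± 0.62 (adjusted p = 0.022) and -2.42 ± 0.47 (adjusted p = 0.0146), and Ncapg2, a condensin subunit, of -2.46 ± 0.51 (adjusted p = 0.0212). None of these 4 genes passed in the 6M-12W set, where their folds were 0.34, -0.40, -0.26 and -0.94 (smallest adjusted p = 0.313).

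Higher effects than in 6M-8W included those on Pcdhga2, Atp2a1 and Pla2g2c. Atp2a1, the calcium pump of fast skeletal muscle, rose here with a log2 fold of 1.04 and was at -0.88 in 6M-8W (difference 1.92 ± 0.25, adjusted p = 0.000342). Pla2g2c, a secreted phospholipase, had a difference of 1.62 ± 0.27 (adjusted p = 0.00325). Pcdhga2, a protocadherin that shares exons with its cluster so that its counts are uncertain, had 5.24 ± 1.17 (adjusted p = 0.0401). The calls of Chrna6, Ncapg2 and Pcdhga2 were lost when single libraries were left out, with adjusted p up to 0.0645, 0.0769 and 0.168; stressed 4 of this set was one such library for each of them.

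Of 21 genes of the basement membrane, Col4a1, Col4a2, Col15a1 and Nid1 fell. Type IV collagen forms its network, and Col4a1 and Col4a2 encode the 2 chains of the most common form. They lie head to head on chromosome 8, and their RefSeq windows share 78 bases (chr8:11312777-11312854). The start sites lie 22 bases apart counting both, at 11312805 for Col4a2 on the plus strand and 11312826 for Col4a1 on the minus strand (chr8:11312801-11312830, plus strand, bases from one start site to the other in capitals).
Col4a1 and Col4a2: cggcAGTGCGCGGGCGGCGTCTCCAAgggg
Col4a1 (chr8:11198423-11312826) was at 143, 117, 152 and 103 CPM in the controls and 66.9, 69.3, 68.5 and 60.5 CPM in the stressed pituitaries (log2 fold -0.96 ± 0.13 (SE), adjusted p = 1.34e-04). Col4a2 (chr8:11312805-11449287) was at 93.6, 84.6, 99.3 and 73.8 CPM in the controls and 49.9, 56.7, 46.0 and 43.0 CPM in the stressed pituitaries (log2 fold -0.84 ± 0.11 (SE), adjusted p = 1.34e-04). Neither gene's groups overlapped, and both genes passed in all 18 alternatives. The other chains, Col4a3 to Col4a6, had folds from -0.28 to 0.11 and did not pass.

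Col15a1, a collagen that sits at the outer face of basement membranes, was at 41.4, 46.7, 49.9 and 38.6 CPM in the controls and 33.0, 26.0, 27.7 and 28.0 CPM in the stressed pituitaries (log2 fold -0.62 ± 0.13 (SE), adjusted p = 0.0181). Nid1, encoding nidogen, which links laminin to collagen IV, was at 47.9, 49.2, 62.1 and 58.9 CPM in the controls and 42.0, 44.0, 39.9 and 40.8 CPM in the stressed pituitaries (log2 fold -0.39 ± 0.088 (SE), adjusted p = 0.0488). Both had groups apart, but their calls were lost without 1 library: Col15a1 without control 3 or stressed 2, 3 or 4 (adjusted p up to 0.0837), Nid1 without control 3 or 4 or any stressed pituitary (up to 0.153). Sparc, a collagen-binding matrix protein, had a fold of -0.45 ± 0.11 (adjusted p = 0.0627), and its groups did not overlap. The laminin genes did not pass and lay between -0.35 (Lama4) and 0.22 (Lama5). Over the 21 basement membrane genes, 4 fell, none rose and the median was -0.24. Without controls 3 and 4, 2 fell (Col4a1 and Col4a2).

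Endothelial markers were lower as a sum, but no single one passed. The summed level of 10 endothelial genes was 522 to 555 CPM in the controls and 459.8 to 489 CPM in the stressed pituitaries, and the groups did not overlap. In such whole-gland RNA, fewer cells of a type and less RNA per cell cannot be told apart. Cdh5, the endothelial cadherin, was at 43.8, 46.7, 54.2 and 51.5 CPM in the controls and 36.2, 35.7, 37.3 and 33.1 CPM in the stressed pituitaries (log2 fold -0.46 ± 0.11 (SE), adjusted p = 0.066). Pecam1 had a fold of -0.42 ± 0.11 (adjusted p = 0.0808), and both had adjusted p under the threshold by DESeq2 (0.0116 and 0.0215). In edgeR without controls 3 and 4, Cdh5 had a fold of -0.36 (adjusted p = 0.246) and Pecam1 of -0.21 (adjusted p = 0.407). With 1 library left out their edgeR adjusted p reached 0.181 and 0.273. Flt1 and Kdr, the VEGF receptors, had folds of 0.23 ± 0.099 and 0.17 ± 0.080 in the other direction, with stressed libraries above all controls in both (adjusted p 0.366 and 0.445). None of the 10 was called by edgeR; 6 had an unadjusted p under 0.05 (2 higher, 4 lower), and DESeq2 called 3 lower. The median was -0.20.

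Aplnr, Plat and Tspan18 also fell. Aplnr, the apelin receptor, was at 19.5, 27.2, 29.2 and 27.2 CPM in the controls and 13.8, 14.5, 13.9 and 14.7 CPM in the stressed pituitaries (log2 fold -0.85 ± 0.16 (SE), adjusted p = 0.0121). Plat, tissue plasminogen activator, had a fold of -0.59 ± 0.11 (adjusted p = 0.0121), and Tspan18, a tetraspanin, of -0.65 ± 0.13 (adjusted p = 0.0211). Plat lost its call without stressed 3 or 4 (up to 0.0768), and Tspan18 without control 2 or 4 or stressed 1 or 4 (up to 0.131). Of the 24 matrix and fibroblast genes, which hold Col4a1, Col4a2 and Col15a1 too, 3 fell, 20 had folds below 0 (50.1% of all genes tested did, and 49.9% were above 0) and the median was -0.29; their summed level was 1307 to 1645 CPM in the controls and 1126 to 1212 CPM in the stressed pituitaries. Of 8 pericyte and smooth muscle genes none passed in edgeR or DESeq2, and 1 had an unadjusted p under 0.05 (Cspg4, fold -0.42 ± 0.18; Pdgfrb -0.18 ± 0.093).

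**Figure D3:**
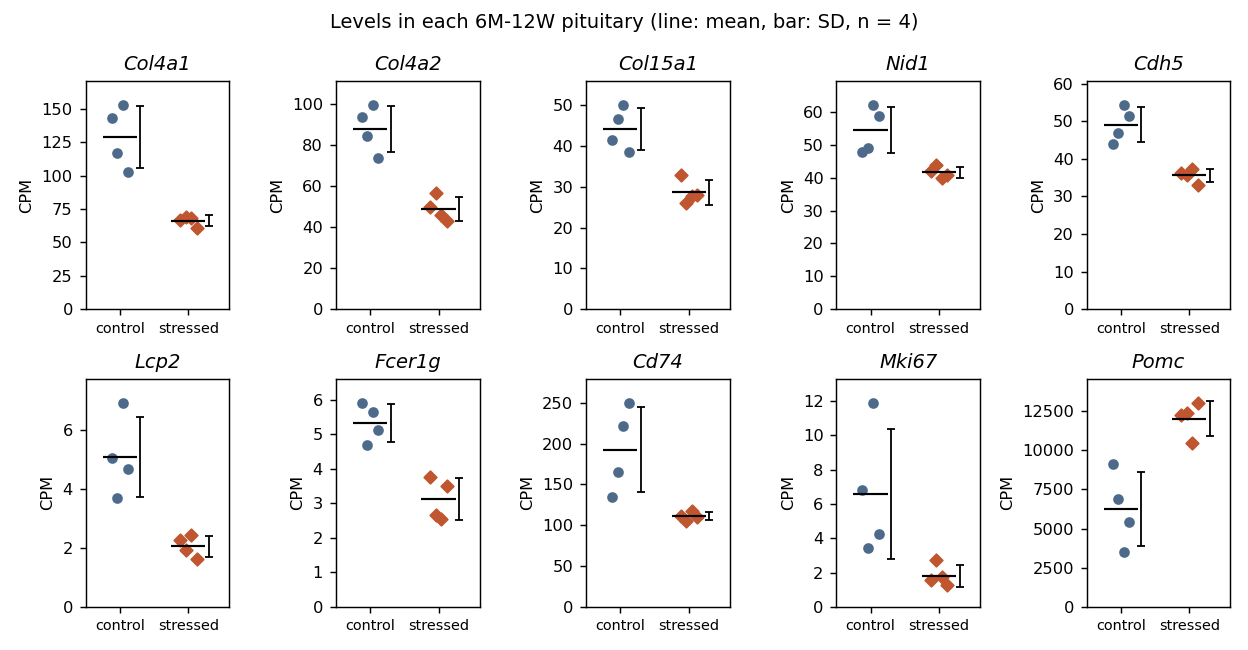
Levels (CPM, axes from 0) of 10 genes in the 4 control and 4 stressed 6M-12W pituitaries, with mean (line) and SD (bar). Col4a1, Col4a2, Col15a1, Nid1, Cdh5, Lcp2, Fcer1g, Cd74 and Mki67 are lower in every stressed library than in any control, and Pomc is higher; Cdh5 and Pomc did not pass the test.

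Of the leukocyte genes, Lcp2, Fcer1g, Cd74 and Aim2 fell. Lcp2, a scaffold protein of immune receptor signalling, was at 5.03, 3.67, 6.90 and 4.66 CPM in the controls and 2.26, 1.93, 2.42 and 1.61 CPM in the stressed pituitaries (log2 fold -1.29 ± 0.23 (SE), adjusted p = 0.00617). Fcer1g, the shared signalling chain of Fc receptors, was at 5.89, 4.67, 5.65 and 5.10 CPM in the controls and 3.77, 2.65, 2.55 and 3.49 CPM in the stressed pituitaries (log2 fold -0.76 ± 0.17 (SE), adjusted p = 0.0326). Cd74, the invariant chain of MHC class II, was at 134, 165, 221 and 249 CPM in the controls and 112, 105, 117 and 111 CPM in the stressed pituitaries (log2 fold -0.79 ± 0.17 (SE), adjusted p = 0.0218). In all 3 genes the groups did not overlap, and Cd74 was highest in controls 3 and 4. Aim2, a sensor of cytosolic DNA, was at 1.39, 1.74, 2.91 and 2.52 CPM in the controls and 0.621, 0.573, 1.31 and 0.699 CPM in the stressed pituitaries (log2 fold -1.42 ± 0.31 (SE), adjusted p = 0.0331).

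Lcp2 passed with any 1 library left out (adjusted p up to 0.0477) but not without controls 3 and 4 (0.0903). The others rested on more of the libraries. Fcer1g was lost without control 1, 3 or 4 or stressed 2, 3 or 4 (up to 0.127), Cd74 without control 3 or 4 or any stressed pituitary (up to 0.113), and Aim2 without control 3 or 4 or stressed 1, 2 or 4 (up to 0.135).

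Most other leukocyte genes had folds in the same direction. In the macrophage list 1 of 16 fell, 15 had a fold below 0 and the median was -0.42; 11 had an unadjusted p under 0.05. Cd68, a lysosomal macrophage marker, had a fold of -0.68 ± 0.17 (adjusted p = 0.0856), while Csf1r, the receptor that macrophages need, and C1qa were at -0.26 ± 0.15 and -0.24 ± 0.14. Without controls 3 and 4 the fold of Cd68 was -0.29 (edgeR adjusted p = 0.463). With 1 library left out its edgeR adjusted p reached 0.315. Of 16 leukocyte signalling genes 1 fell, all 16 were below 0 and the median was -0.44. Itgb2, an integrin chain, had -0.54 ± 0.14 (adjusted p = 0.104), and -0.51 without controls 3 and 4 (edgeR adjusted p = 0.214). The summed levels did not overlap: macrophage genes had 223 to 279 CPM in the controls and 188 to 199.9 CPM in the stressed pituitaries, and leukocyte signalling genes 112 to 142 and 87.0 to 98.0 CPM. In the other sets these sums were 184 to 268 and 74.9 to 111 CPM.

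Of the MHC class II genes, a list made after the values were seen, 10 were tested, 1 fell and the median was -0.61. H2-Ab1, encoding a class II beta chain, was at 47.4, 63.8, 53.6 and 77.6 CPM in the controls and 37.2, 34.7, 39.2 and 37.5 CPM in the stressed pituitaries (log2 fold -0.71 ± 0.16 (SE), adjusted p = 0.0525). H2-Aa and H2-Eb1 had folds of -0.61 ± 0.16 and -0.62 ± 0.19, and no stressed library of the 3 genes reached a control. Without controls 3 and 4 none of these genes passed and the median was -0.45.

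Of 30 cell cycle genes 1 fell. Mki67, which marks proliferating cells, was at 6.82, 3.41, 11.9 and 4.22 CPM in the controls and 1.55, 2.72, 1.73 and 1.26 CPM in the stressed pituitaries (log2 fold -1.85 ± 0.39 (SE), adjusted p = 0.0245), with control 3 highest. Its call was lost without control 3 or stressed 1, 3 or 4 (adjusted p up to 0.15). Ccna2, encoding cyclin A2, had a fold of -1.01 ± 0.23 (adjusted p = 0.0547). Over the list, 24 had a fold below 0, 13 were lower at an unadjusted p under 0.05 and the median was -0.73, which was -0.36 without controls 3 and 4. The summed level overlapped between the groups, at 178 to 230 CPM in the controls and 172 to 185 CPM in the stressed pituitaries. The list's median was also below 0 elsewhere, at -0.47 in 2M-8W, -0.60 in 2M-12W and -0.21 in 6M-8W.

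Of 7 corticotrope genes 6 had a fold above 0, but none passed edgeR's threshold. Pomc (9121, 6892, 3533 and 5425 CPM in the controls and 12289, 12373, 10450 and 13019 CPM in the stressed pituitaries) had a log2 fold of 0.95 ± 0.24 and an adjusted p of 0.0897. Every stressed library was above every control, and control 3 was the lowest of the 8. The list, mostly Pomc, summed to 4022 to 9540 CPM in the controls and 10912 to 13473 CPM in the stressed pituitaries. In the other sets, controls and stressed together, it summed to 7935 to 35777 CPM. Controls 2 to 4 here lay below that range, and control 1 and the stressed values lay inside it. Crhr1, the CRH receptor, was at 14.8, 14.6, 8.14 and 11.4 CPM in the controls and 20.5, 17.1, 16.9 and 17.3 CPM in the stressed pituitaries (log2 fold 0.55 ± 0.15 (SE), adjusted p = 0.104). Tbx19, the factor that defines the Pomc lineage, was at 60.6, 50.3, 50.6 and 58.6 CPM in the controls and 94.1, 58.3, 77.2 and 82.9 CPM in the stressed pituitaries (log2 fold 0.51 ± 0.14 (SE), adjusted p = 0.112), and its groups overlapped.

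Of 7 corticotrope genes edgeR called 0; 4 were higher at an unadjusted p under 0.05, and DESeq2 called 3 higher: Pomc (adjusted p = 0.0132), Crhr1 (0.0394) and Tbx19 (0.0486). The median was 0.51. Avpr1b, the vasopressin receptor of corticotropes, had a fold of 0.60 ± 0.19, and Pcsk1, Neurod1 and Crhbp had 0.19 ± 0.11, 0.16 ± 0.22 and -0.10 ± 0.33. Pomc passed in edgeR when control 1 was left out (adjusted p = 0.0243), but its adjusted p reached 0.259 with another library left out. Without controls 3 and 4 its fold was 0.58 (edgeR adjusted p = 0.351). For Crhr1 and Tbx19 the edgeR adjusted p reached 0.316 and 0.311 with 1 library left out. Without controls 3 and 4 it was 0.417 and 0.238. Pomc had folds elsewhere of 1.08 in 2M-8W, 0.92 in 2M-12W and 0.93 in 6M-8W. Melanotropes of the intermediate lobe also make Pomc: Oacyl and Pax7, which mark them, had folds of 0.50 ± 0.18 and 0.47 ± 0.20 (adjusted p 0.271 and 0.364), each with stressed libraries above all controls. Of the 4 melanotrope genes edgeR called 0, with 3 at an unadjusted p under 0.05, and DESeq2 called 1, Pomc.

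Genes that respond to glucocorticoids gave no call. Fkbp5, which dampens the glucocorticoid receptor and is induced by it, was at 48.4, 49.5, 39.6 and 43.1 CPM in the controls and 59.3, 58.7, 67.8 and 64.9 CPM in the stressed pituitaries (log2 fold 0.47 ± 0.14 (SE), adjusted p = 0.151). Tsc22d3, known as GILZ, had a fold of 0.45 ± 0.14 (adjusted p = 0.188). Both genes had stressed libraries above all controls. Of 22 such genes edgeR and DESeq2 called 0, with 4 at an unadjusted p under 0.05, all higher, and the median was 0.066. Nr3c1, the receptor itself, had a fold of 0.19 ± 0.24 and was lower in replicate 1 of both groups than in the others.

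**Figure D4:**
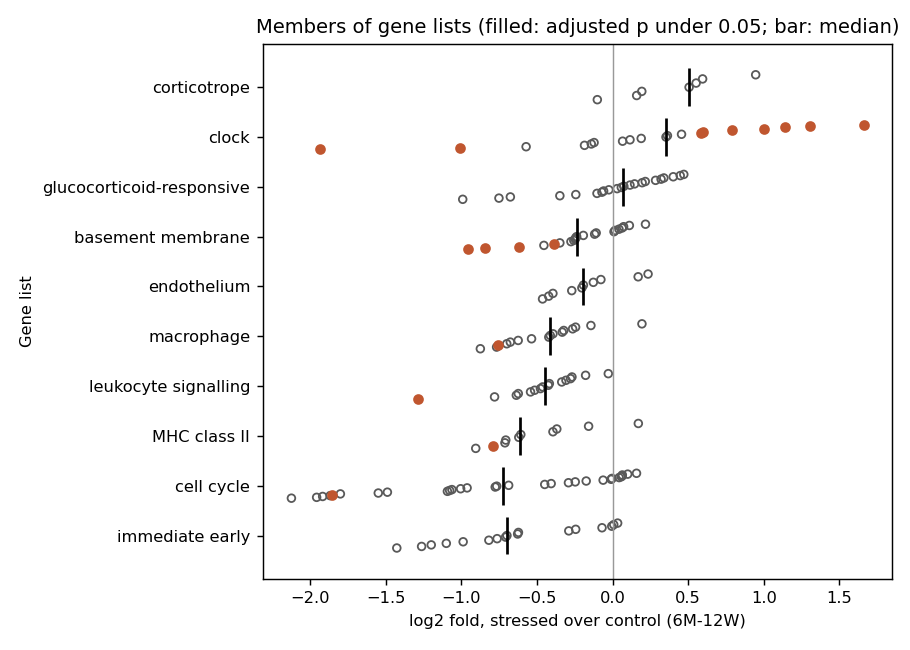
Log2 folds (stressed over control) of the tested members of 10 gene lists in the 6M-12W pituitaries; filled points passed the test, and the vertical bar is the list's median. Clock genes spread to both sides, basement membrane, leukocyte and cell cycle genes lie mostly below 0, and corticotrope genes mostly above 0 without a call.

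Hormone genes of the reproductive, growth and thyroid axes showed no call in either direction. Prl was at 139221, 106578, 148544 and 123846 CPM in the controls and 107582, 130707, 113805 and 116944 CPM in the stressed pituitaries (log2 fold -0.14 ± 0.12 (SE), adjusted p = 0.714), and the groups overlapped. Gh had a fold of -0.077 ± 0.14, Lhb of 0.047 ± 0.16, Cga of 0.24 ± 0.15 and Tshb of 0.46 ± 0.17. Fshb, encoding the beta chain of FSH, was at 51.4, 270.3, 79.5 and 54.8 CPM in the controls and 111, 49.3, 155 and 38.9 CPM in the stressed pituitaries (log2 fold -0.36 ± 0.63), with control 2 highest and the groups overlapping. Gnrhr, the GnRH receptor, had 0.077 ± 0.15, Esr1 -0.12 ± 0.10, Drd2 -0.11 ± 0.14, Ghrhr 0.099 ± 0.14 and Trhr 0.038 ± 0.20. Of the genes tested for gonadotropes (7), thyrotropes (5), lactotropes (5) and somatotropes (6), edgeR and DESeq2 called 0; at an unadjusted p under 0.05 there were 0, 1, 0 and 3. Of other members, Nr5a1 had a fold of 0.21 ± 0.11, Sstr2 of -0.58 ± 0.26 and Pappa2 of -0.44 ± 0.20.

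Other genes that rose have varied roles. Mettl7a1, a methyltransferase-like gene with near-identical paralogs that could share its reads, was at 92.3, 92.8, 72.0 and 85.4 CPM in the controls and 146, 145, 139 and 141 CPM in the stressed pituitaries (log2 fold 0.74 ± 0.091 (SE), adjusted p = 3.17e-05) and passed in all alternatives. Cpne7, a copine, was at 10.7, 8.15, 4.65 and 5.10 CPM in the controls and 18.8, 15.7, 14.9 and 18.6 CPM in the stressed pituitaries (log2 fold 1.24 ± 0.24 (SE), adjusted p = 0.0121). Rasd2, a small GTPase, was at 7.09, 7.48, 3.91 and 7.31 CPM in the controls and 13.4, 11.9, 11.7 and 12.5 CPM in the stressed pituitaries (log2 fold 0.94 ± 0.19 (SE), adjusted p = 0.0181). All 3 had stressed libraries above every control. Cpne7 was lost without control 3, control 4 or stressed 4 (up to 0.0689), and Rasd2 without control 3, stressed 1 or stressed 4 (up to 0.0841).

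Atp2a1 was at 2.25, 1.80, 1.75 and 1.76 CPM in the controls and 4.57, 3.15, 3.73 and 4.05 CPM in the stressed pituitaries (log2 fold 1.04 ± 0.18 (SE), adjusted p = 0.00588), with 21.9% of its exon bases overlapping Rabep2 on the other strand. The strand setting of the counting is not given in the sources used here, which bears on Dbp and Bhlhe41 too. Ntng2 shares 14% of its exon bases with 6530402F18Rik on the same strand. Markers of skeletal muscle summed to 3.47 to 4.90 CPM in the controls and 4.57 to 7.45 CPM in the stressed pituitaries, and none of the 7 tested passed (1 at an unadjusted p under 0.05 in edgeR, 0 in DESeq2); Pvalb had a fold of 0.64 ± 0.30 and Tcap of 1.22 ± 0.67. Glul, glutamine synthetase, was at 174, 206, 155 and 177 CPM in the controls and 239.9, 233, 243 and 258 CPM in the stressed pituitaries (log2 fold 0.45 ± 0.093 (SE), adjusted p = 0.0185). Slc6a15, a transporter of neutral amino acids, and Sulf1, a sulfatase of heparan sulfate, had folds of 0.64 ± 0.14 (adjusted p = 0.0245) and 0.49 ± 0.097 (adjusted p = 0.0161). Stk35, a kinase, Rnf145, a ubiquitin ligase of the endoplasmic reticulum, and the lincRNA RP23-292C5.4 had 0.43 ± 0.088, 0.38 ± 0.075 and 1.49 ± 0.29. Single-library removal ended the calls of Glul (up to 0.0976), Slc6a15 (0.116), Sulf1 (0.0924), Stk35 (0.083), Rnf145 (0.0841) and RP23-292C5.4 (0.0511); stressed 4 was such a library for all of them but Rnf145.

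Among the remaining genes that fell, Scd3, a stearoyl-CoA desaturase of a family with similar sequences, was at 5.63, 7.81, 6.90 and 5.17 CPM in the controls and 2.44, 3.22, 3.17 and 2.38 CPM in the stressed pituitaries (log2 fold -1.19 ± 0.21 (SE), adjusted p = 0.00588). Ahdc1, a DNA-binding protein gene, was at 38.7, 24.7, 33.3 and 21.9 CPM in the controls and 14.7, 13.8, 12.9 and 9.78 CPM in the stressed pituitaries (log2 fold -1.21 ± 0.23 (SE), adjusted p = 0.0101), and its call was lost without stressed 4 (0.0608). Its fold was 0.65 in 2M-8W, -0.083 in 2M-12W and -0.34 in 6M-8W. Sctr, the secretin receptor, had the second largest fall after Npas2 but a low level, 0.795, 0.868, 0.499 and 0.882 CPM in the controls and 0.133, 0.143, 0.207 and 0.349 CPM in the stressed pituitaries (log2 fold -1.90 ± 0.41 (SE), adjusted p = 0.0302). Cd24a, a surface glycoprotein, was at 137, 121, 212 and 149 CPM in the controls and 91.3, 107, 94.5 and 96.7 CPM in the stressed pituitaries (log2 fold -0.67 ± 0.12 (SE), adjusted p = 0.00588), with control 3 highest.

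Cacng7, Prrt1 and Ntng2, known from neurons, also fell. Cacng7, an auxiliary subunit of AMPA receptors, had a fold of -0.38 ± 0.085 (adjusted p = 0.0381), Prrt1, another AMPA receptor partner, of -0.41 ± 0.082 (adjusted p = 0.0179) and Ntng2, netrin G2, of -0.54 ± 0.11 (adjusted p = 0.0161). Fut2, a fucosyltransferase, had -0.95 ± 0.20, Leo1, a subunit of the PAF1 complex, -0.42 ± 0.076, and Rabl2, a GTPase linked to cilia, -0.54 ± 0.12. Cmtm7 and Cmtm3, of one family of membrane proteins, had -0.91 ± 0.16 and -0.65 ± 0.13. Tmem132d, Tmem229a, Fam189a2 and 4931429I11Rik had -0.86 ± 0.19, -0.81 ± 0.15, -0.74 ± 0.15 and -0.60 ± 0.12. Leo1, Cmtm7, Tmem229a, Cd24a, Scd3 and Aplnr kept their calls with any 1 library left out; the other falls of this paragraph and Sctr lost theirs without 2 to 7 of the 8 libraries in turn, with adjusted p up to 0.162.

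The 47 genes were also read in the other pituitary sets, each with its own controls. In 2M-8W, where 72 genes passed (0.424%; 41 higher, 0.241%, and 31 lower, 0.182%), 23 of the 47 passed, all in the same direction, which is 48.9% of the 47 and 31.9% of the 72. In 2M-12W, with 99 genes (0.582%; 66 higher, 0.388%, and 33 lower, 0.194%), 18 passed in the same direction (38.3% of the 47, 18.2% of the 99). In 6M-8W, with 799 genes (4.70%), 31 passed (66% of the 47, 3.88% of the 799), 30 in the same direction and Atp2a1 in the opposite one. Leaving out the clock genes, 38 remain, of which 14, 9 and 22 passed in those sets. Aplnr, Rasd2, Mettl7a1, Glul and Leo1, and all 9 clock genes, were called in all 3.

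The fold was in the same direction in all 3 other sets for 34 genes, in 2 for 11 genes and in 1 for 2 genes. Of the 38 called genes outside the clock list 25 were among the 34. The share of all genes tested with the same direction in every set is not given here. Cd74 had folds of -0.37 in 2M-8W, 0.092 in 2M-12W and -0.0031 in 6M-8W, Fcer1g of 0.13 in 2M-8W, -0.24 in 2M-12W and -0.071 in 6M-8W, Aim2 of 0.17 in 2M-8W, 0.083 in 2M-12W and -0.0088 in 6M-8W and Lcp2 of -0.52 in 2M-8W, 0.074 in 2M-12W and -0.17 in 6M-8W. The test of the difference from the mean of those sets did not call any of these 4 genes. Col4a1 had -0.81 in 2M-8W, -0.34 in 2M-12W and -0.59 in 6M-8W, and was called in 2M-8W and 6M-8W.

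**Figure D5:**
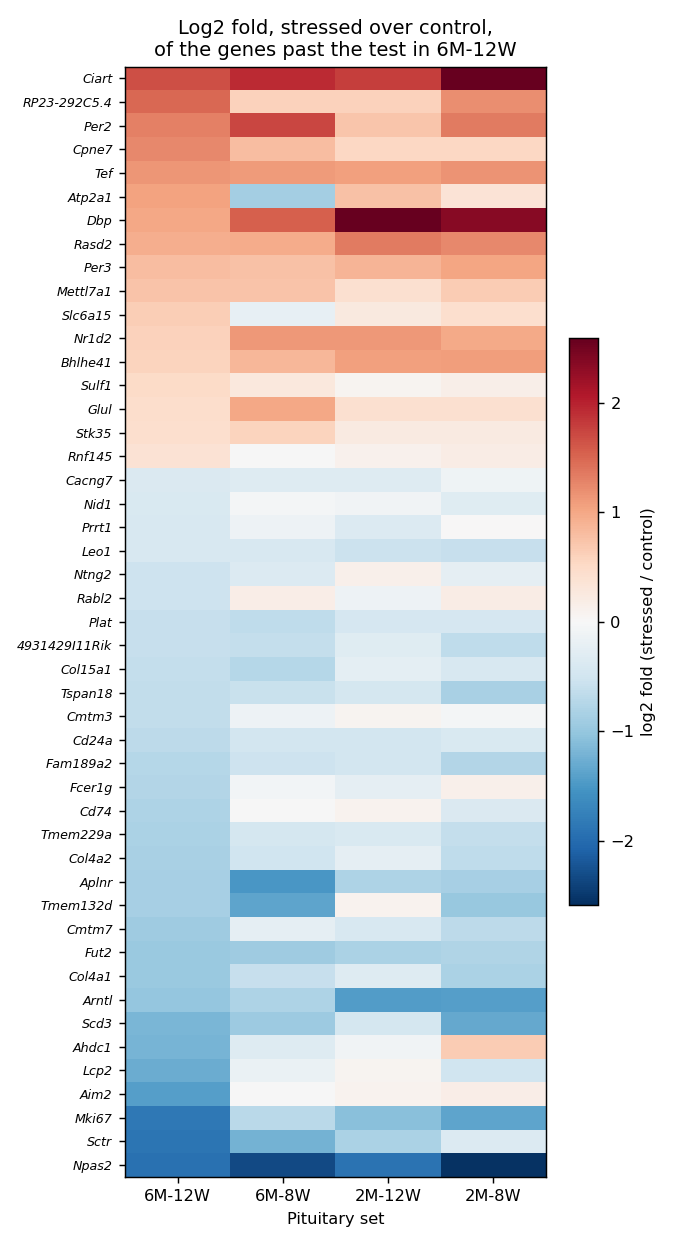
Log2 folds of stressed over control (colour scale) of the 47 genes that passed in the 6M-12W pituitaries, sorted by their fold there, in that set and in the 3 other pituitary sets. Ciart, Per2, Tef, Dbp, Arntl and Npas2 have the same sign in all 4 sets, while Atp2a1 is 1.04 in 6M-12W and -0.88 in 6M-8W.

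Lists on cell stress and metabolism gave no call beyond Scd3. Of 17 immediate early genes 15 had a fold below 0, with a median of -0.70; Egr1, a transcription factor induced by many stimuli, was at 757, 1001, 690.4 and 602 CPM in the controls and 262, 477, 258 and 274 CPM in the stressed pituitaries (log2 fold -1.26 ± 0.65, adjusted p = 0.485). The groups of Egr1 did not overlap, and its SE came from the spread of all 32 libraries. Npas4 had a fold of -0.99 ± 0.35. Immediate early genes summed to 2342 to 4600 CPM in the controls, 1359 to 2658 CPM in the stressed pituitaries and 596 to 5799 CPM in the other sets. Of 20 interferon genes 18 were below 0 (median -0.28; Rsad2 -0.62 ± 0.28, Gbp2 -0.27 ± 0.16), and of 12 heat shock genes 9 (median -0.17; Bag3 -0.29 ± 0.19, Hspa8 -0.23 ± 0.17). Genes of the unfolded protein response had a median of 0.040 (Herpud1 0.28 ± 0.090, Chac1 -0.42 ± 0.20), and lipid and sterol synthesis 0.10 (Srebf2 0.25 ± 0.087). Regulated secretion genes had -0.012 (Syp 0.26 ± 0.099, Cadps -0.18 ± 0.097).

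Genes of respiration were read separately by genome. Of 26 nuclear genes of the respiratory chain 21 had a fold above 0 (median 0.089; Ndufv1 0.33 ± 0.11, Uqcrc2 0.13 ± 0.057). Of 13 mitochondrially encoded genes 12 were below 0, with a median of -0.25. Without control 3, 11 of the 13 were above 0 and the median was 0.066. mt-Nd2, a subunit of complex I, was at 1969, 2506, 6398 and 2838 CPM in the controls and 1789, 2206, 2759 and 2353 CPM in the stressed pituitaries (log2 fold -0.59 ± 0.23), and mt-Nd6, on the other strand, had 0.57 ± 0.29. Neither list had a call in edgeR or DESeq2; at an unadjusted p under 0.05 there were 3 nuclear genes higher and 1 mitochondrial gene lower.

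Markers of other cells were checked for tissue identity. The lactotrope list summed to 107303 to 149276 CPM in the controls and the somatotrope list to 33096 to 46323 CPM, and the ovary genes Zp3, Fshr, Hsd3b1 and Cyp19a1 were at 0 in all 8 libraries. Posterior lobe and hypothalamus genes summed to 143 to 217 CPM in the controls and 171 to 227 CPM in the stressed pituitaries; Col25a1 of this list was at 27.8, 30.8, 34.2 and 36.2 CPM in the controls and 69.1, 77.6, 35.2 and 79.0 CPM in the stressed pituitaries (log2 fold 1.02 ± 0.37 (SE), adjusted p = 0.29), with stressed 3 inside the control range, and Oxt had a fold of 0.52 ± 0.34. Folliculostellate and stem cell genes summed to 391 to 436 and 470.3 to 486 CPM, without overlap and without a call (Aldoc 0.42 ± 0.11, Cyp2f2 0.31 ± 0.094). Myelin (Mbp 0.13 ± 0.11, Mobp -0.71 ± 0.81), red cell (Hbb-bt 0.26 ± 0.35, Hbb-bs 0.20 ± 0.34) and lymphocyte genes (Nkg7 -2.06 ± 0.86) overlapped between the groups. So did neutrophil genes (Ngp -2.51 ± 0.99, S100a9 -2.02 ± 0.83) and cartilage and bone genes, of which 1 of 6, Col2a1 (0.17 ± 0.21), had enough counts to be tested. Nkg7, Ngp and S100a9 were near the floor, with control means of 0.39, 0.64 and 0.57 CPM. Of 8 lymphocyte genes tested 4 were above 0 and 4 below (median -0.013). Of 5 neutrophil genes 4 were below 0, but Lcn2, with means of 7.75 CPM in the controls and 9.71 CPM in the stressed pituitaries, had 0.33 ± 0.30. Of the steroid receptor list, Gal, an estrogen-responsive gene, had -0.77 ± 0.55. Cyp17a1 and Cyp11a1, ovary genes near 0 here, had -0.90 ± 0.39 and 2.48 ± 1.14. The part of these cells in the results above was not tested.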

How the data were processed

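The labels' protocols name a chloroform extraction and a NEBNext Ultra II library kit. The deposited table holds raw read counts per gene and FPKM values side by side; the counts were used, and the authors' FPKM values were copied beside them as a description only. Aligner, counter and strand setting: not given in the sources used here. All 47 genes were found in GENCODE release 21 for mouse (GRCm38), from which exon overlaps were read.

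Counts of the 32 pituitary libraries (8 groups of 4) were filtered with filterByExpr, leaving 17001 of 34745 genes, scaled by TMM and tested with edgeR 4.0.16 (R 4.3.3) by the quasi-likelihood F test, with Benjamini-Hochberg adjustment over all genes tested. The SE is the log2 fold divided by the square root of F. Differences between sets were contrasts of the same fit. The biological coefficient of variation was 0.158. DESeq2 1.42.0, other scaling, no filter, the set's own 8 libraries alone, a replicate block, mitochondrial covariates and leaving out each library were tried. No 2 libraries of the same 6M-12W group held identical values or agreed within sampling noise (chi-square over degrees of freedom at least 8.41). Counts were also simulated for 17001 genes, of which 200 were changed in this comparison. Of the genes changed by 2-fold 93% were recovered, of those changed by 4-fold 100%, and 4.46% of the calls were false. These rates describe the simulated counts only. Whether they hold for the real libraries, with their uneven controls and mitochondrial shares, or for genes of low level, was not tested.

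Members, gene lists, tests and the rule for named genes were chosen with earlier results of these data known. Named were the genes past the test, core pituitary genes, the 2 members of each list with the smallest p, and the 4 highest and 4 lowest differences between sets among genes of mean log2 CPM at least 1; other list members given as examples were picked after their values were seen. The basement membrane and MHC class II lists were added after the values were seen. Promoters were searched as letters in RefSeq windows; genes that have none there are named only. A few genes that the rule would name are not reported here.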

Additional observations from a re-analysis of the deposited data

Results flagged for a closer look

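Within the groups of 4, the gap of an extreme library to its nearest neighbour was compared with the group's whole range (Dixon's ratio at the 95% level), for 132 groups of values. Of these 8 exceeded it, where chance flags about 1 group in 20. Control 3 was low in Rasd2 (ratio 0.917) and high in Cacng7 (0.961). Control 1 was high in Atp2a1 (0.873) and low in Nr3c1 (0.873). Stressed pituitary 1 was low in Nr3c1 (0.854) and high in Crhr1 (0.894), and stressed 4 was high in Sulf1 (0.849). In total counts, stressed 1 lay apart from the other stressed libraries (0.964).

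Stress effects that differed from another set by a test of the difference (edgeR, log2 scale) were as follows. Nr1d1 differed by -1.54 from the mean of the other sets and by -2.30 from 2M-12W. Dbp differed from 2M-12W by -1.58. Against 6M-8W, Chrna6 differed by -2.99, Ncapg2 by -2.46, Nwd2 by -2.42 and Doc2b by -2.18, all lower here. Pla2g2c differed by 1.62, Atp2a1 by 1.92 and Pcdhga2 by 5.24, all higher here.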

How the results depend on the processing

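The number of genes past the threshold for stress against control (47) was 143 with DESeq2 (all 47 among them), 7 with the set's own 8 libraries alone and 31 without the library of highest mitochondrial share, which is control 3; leaving out 1 library at a time gave 22 (without stressed 4) to 92 (without control 1). Of those 31, 26 were among the 47. The difference from the mean of the other sets (2) was 28 with DESeq2, 8 without controls 3 and 4, 6 without the highest mitochondrial library, and 1 to 6 with 1 library left out. The difference from 6M-8W (61) was 192 with DESeq2, 33 with own groups alone and 27 to 122 with 1 library left out. The difference from 2M-12W (4) was 15 with DESeq2, 1 with own groups alone, 1 with the replicate block, 9 without controls 3 and 4, 2 with robust empirical Bayes, and 1 to 5 with 1 library left out. The causes were not tested; own groups alone leaves fewer samples for the spread.

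The labels give both groups replicate numbers, but same-numbered libraries of the set correlated by 0.142, -0.0571, 0.0579 and 0.0313 in their deviations, so the numbers were not taken as pairs. The replicate block gave 45 calls, 36 of them among the 47; 2 of the 4 controls (1 and 4) correlated best with their own number. For the difference from the mean of the other sets the block gave 2 calls and from 6M-8W 55. The mitochondrial share had a paired exact p of 0.25.

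The mitochondrial share difference was 0.151 points without control 3 and -1.79 to 0.151 over single libraries left out. Folds of uncalled genes that changed sign without controls 3 and 4 were Drd2 0.11, Lhb -0.27, Hbb-bt -0.20, Hbb-bs -0.14, Col2a1 -0.22, Hspa8 0.021 and mt-Nd2 0.016; without the highest mitochondrial library they were Drd2 0.022 and Lhb -0.12. With single libraries left out, folds ran from -0.78 to 0.52 for Fshb, -0.00496 to 0.16 for Ghrhr, -0.17 to 0.17 for Trhr, -0.17 to 0.022 for Drd2, -0.12 to 0.23 for Lhb, -0.00846 to 0.36 for Nr3c1, -0.081 to 0.21 for Gnrhr, -0.000605 to 0.502 for Hbb-bt and -0.048 to 0.42 for Hbb-bs. At 4 libraries a group, genes of low level, such as Sctr and Aim2, carry large errors.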
